A study of Rattus norvegicus with 8 samples.

Results

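The genes described here are the 7 protein genes of the rat mitochondrial genome that encode subunits of respiratory complex I: mt-Nd1, mt-Nd2, mt-Nd3, mt-Nd4, mt-Nd4l, mt-Nd5 and mt-Nd6. They were chosen by gene identity, from a list of Ensembl IDs that uses no measured value, though with earlier results of these data known. All 7 were among the 21549 genes of the deposited tables. The IDs were ENSRNOG00000030644 for mt-Nd1, ENSRNOG00000031033 for mt-Nd2, ENSRNOG00000033615 for mt-Nd3, ENSRNOG00000029707 for mt-Nd4, ENSRNOG00000031053 for mt-Nd4l, ENSRNOG00000029971 for mt-Nd5 and ENSRNOG00000029042 for mt-Nd6. The tables hold IDs without symbols, and the RefSeq gene table used here paired 0 of the IDs with a symbol, so these names rest on the IDs alone. All 7 passed the filter on low counts.

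RNA was sequenced from heart tissue of 8 Sprague Dawley rats, an outbred laboratory strain, aged 3 months. The 4 control rats were kept in normoxia, and the 4 others in chronic hypoxia, that is, in reduced oxygen for a sustained time. Each library is taken to come from its own rat. The sources used here do not give how low the oxygen was or for how long, nor the sex of the rats or the chamber of the heart sampled. The comparison asks how cardiac gene expression differs after chronic hypoxia.

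Complex I takes electrons from NADH, passes them to ubiquinone and pumps protons across the inner mitochondrial membrane. Its mitochondrially encoded subunits are hydrophobic and form the core of the membrane arm, while the peripheral arm that oxidises NADH is encoded in the nucleus. The mitochondrial genome is transcribed from both strands into long precursors that are cut into single RNAs, so that mt-Nd1, mt-Nd2, mt-Nd3, mt-Nd4l, mt-Nd4 and mt-Nd5 come from one precursor strand and mt-Nd6 from the other. Heart muscle is rich in mitochondria, and these RNAs are among the most abundant in it.

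Library totals ran from 26229304 to 32160710 counts. Each of the 7 genes had between 26198 and 1170801 counts in every library, so that counting error was at most 0.618% of a value (as a coefficient of variation) and the widest 95% Wilson interval on a share of counts was ±0.00668 percentage points. These limits cover counting error only. The scaling of the libraries weighed more. Under TMM (trimmed mean of M values) scaling the median log2 fold change of the 14214 genes tested was 0.01, and with library totals alone it was −0.17. The TMM factors of the normoxia libraries ran from 1.03 to 1.08, and those of the hypoxia libraries from 0.895 to 0.995. Log2 fold changes are given under both scalings where they differ, while shares of counts and FPKM keep library totals.

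In hypoxic hearts 3 of the 7 genes rose, mt-Nd3, mt-Nd4 and mt-Nd4l, by 1.76-fold, 1.95-fold and 1.56-fold under TMM scaling. None of the 7 passed the test downward under that scaling in edgeR or limma-voom, nor in DESeq2, which has its own size factors. At an unadjusted p under 0.05, edgeR had 0 of the 7 lower and 5 higher, against 21.1% and 23.3% of all genes tested. Of all genes tested under TMM, 33.0% were called, 17.7% higher and 15.3% lower. The 3 of 7 (42.9%) lie above that 17.7% but near the 36.0% called higher among the 100 most abundant genes, which include all 7. Among the 3, mt-Nd4l and mt-Nd4 stay together on the same RNA, so their calls are not independent of each other. With library totals alone 4 of the 7 were called, against 37.3% of all genes: mt-Nd3, mt-Nd4 and mt-Nd4l rose again, and mt-Nd5 fell to 0.741 of its normoxia level, where 27.2% of all genes were called lower. The median log2 fold change of the 7 was 0.47 under TMM and 0.29 under library totals, against 0.01 and −0.17 over all genes tested. In whole tissue, a change in how many cells of a type are present and a change in RNA per cell cannot be told apart. The files pair no markers of cardiomyocytes or other cell types with names, so the tissue label was not checked and the part of cell makeup in these values was not tested.

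The 7 genes had very different counts per gene length. On the FPKM scale (counts relative to gene-model length and library total), mt-Nd1 was highest in normoxia at 27595 ± 2178 FPKM (SD, n = 4) and mt-Nd4 lowest at 992 ± 210 FPKM, a 27.8-fold range. In normoxia the order was mt-Nd1, mt-Nd2, mt-Nd5, mt-Nd3, mt-Nd4l, mt-Nd6 and mt-Nd4. The ranges of mt-Nd1 and mt-Nd2 overlapped, as did those of mt-Nd5 and mt-Nd3, while the other neighbours in the order were apart. In hypoxia the order was mt-Nd2, mt-Nd1, mt-Nd3, mt-Nd5, mt-Nd4l, mt-Nd6 and mt-Nd4, with a 17.5-fold range. There mt-Nd2 overlapped mt-Nd1, and mt-Nd6 overlapped mt-Nd4. Both orders are of counted reads. The sources used here do not say how reads shared between genes or strands were assigned, so the levels of mt-Nd4, mt-Nd4l and mt-Nd6 RNA are uncertain.

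mt-Nd3 and mt-Nd5 stood in opposite order in the 2 groups. mt-Nd3 stood at 7855 ± 544 FPKM in normoxia and 12197 ± 1516 FPKM in hypoxia, and mt-Nd5 at 8609 ± 637 and 6376 ± 827 FPKM (SD, n = 4 each). In normoxia mt-Nd3 was below mt-Nd5 in 3 of 4 hearts, and in hypoxia it was above in 4 of 4.

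**Figure D1:**
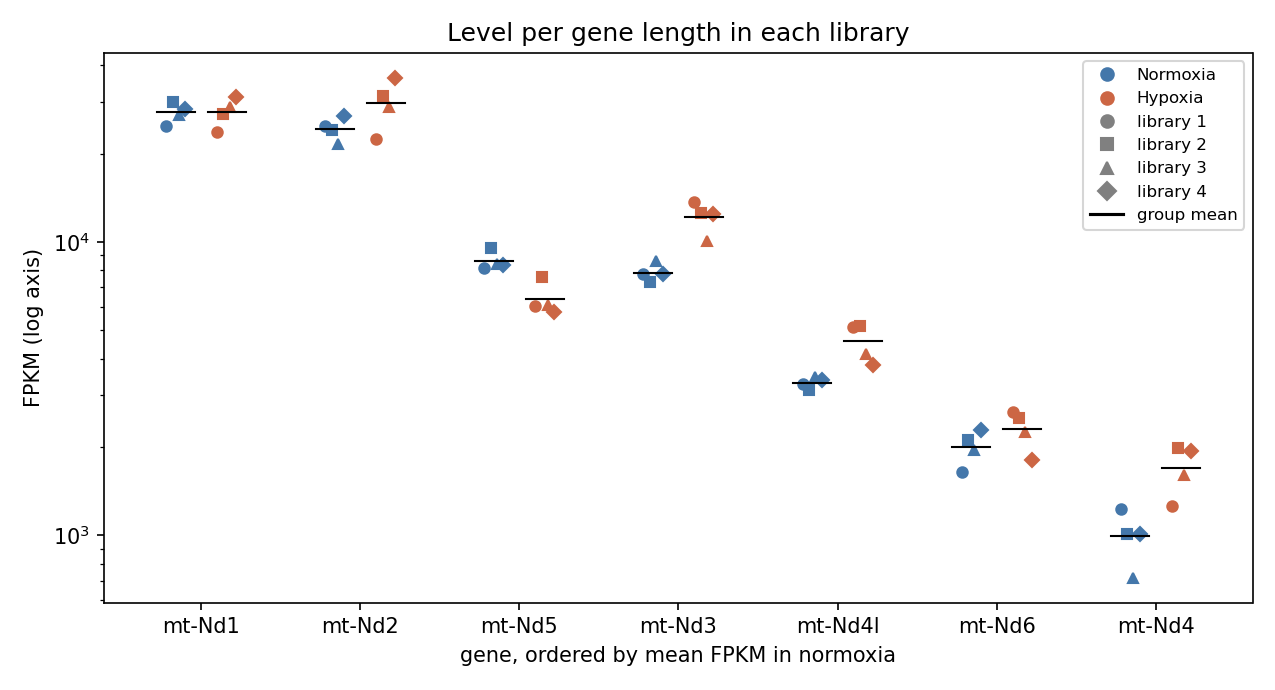
FPKM of each gene (log axis) in each library, with genes ordered by their mean in normoxia, marker shape showing the library number and lines the group means. mt-Nd1 and mt-Nd2 lie at the top in both groups, and mt-Nd3 and mt-Nd5 exchange places between normoxia (7855 and 8609 FPKM) and hypoxia (12197 and 6376 FPKM).

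Of the small subunits, mt-Nd3 carries a loop at the joint of the membrane and peripheral arms. It held 0.270%, 0.254%, 0.299% and 0.270% of counts in normoxia libraries 1 to 4 and 0.477%, 0.438%, 0.351% and 0.432% in hypoxia libraries 1 to 4. All 4 hypoxic hearts lay above all 4 normoxic ones, hypoxia library 3 being the nearest. The same separation of shares was seen in 36.9% of the genes tested. The log2 fold change of mt-Nd3 was 0.81 (SE 0.13, edgeR adjusted p = 0.00158) under TMM and 0.63 (SE 0.11, edgeR adjusted p = 0.00218) under library totals, and 92.9% of genes tested had a lower value under TMM.

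mt-Nd4l is the smallest of the 7 by gene model, at 297 bp, and its protein sits in the membrane next to those of mt-Nd3 and mt-Nd6. Its share was 0.0974%, 0.0929%, 0.103% and 0.101% in normoxia libraries 1 to 4. The hypoxia libraries held 0.153%, 0.154%, 0.124% and 0.113%. The groups did not overlap, with hypoxia libraries 1 and 2 well above and libraries 3 and 4 closer to normoxia. Under TMM it rose by 0.64 on the log2 scale (SE 0.12, edgeR adjusted p = 0.00379), and under library totals 0.47 (SE 0.12, edgeR adjusted p = 0.0110).

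mt-Nd6, the one light-strand gene of the set, encodes a membrane subunit beside the proton path. It held 0.0853%, 0.109%, 0.101% and 0.118% of counts in normoxia and 0.137%, 0.130%, 0.117% and 0.0937% in hypoxia, in library order. By share the groups overlapped: hypoxia libraries 1 and 2 were above every normoxia library, and library 4 was below 3 of them. The groups also overlapped on the TMM scale, with normoxia at 796 to 1151 CPM. There hypoxia library 3, at 1173 CPM, was also above every normoxia library. Hypoxia library 4, at 1048 CPM, was above normoxia libraries 1, 2 and 3. Its log2 fold change of 0.37 under TMM did not pass (SE 0.14, edgeR adjusted p = 0.0655), nor did 0.20 under library totals (SE 0.14, edgeR adjusted p = 0.272). With 1 library left out the TMM value ran from 0.29 to 0.46, and it passed in 1 of the 8 fits, at 0.45 without hypoxia library 4 (edgeR adjusted p = 0.0363).

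mt-Nd2, mt-Nd4 and mt-Nd5 encode the antiporter-like subunits, the proton-pumping modules of the membrane arm. Of the 3, 1 passed the test under TMM, which is near the 33.0% called over all genes tested. mt-Nd4 held 0.169%, 0.139%, 0.0989% and 0.139% of counts in normoxia and 0.174%, 0.274%, 0.221% and 0.268% in hypoxia. Hypoxia library 1 was only just above normoxia library 1, and the other 3 hypoxic hearts were clearly higher. Under TMM it had the largest log2 fold change of the 7, 0.96 (SE 0.20, edgeR adjusted p = 0.00664), and under library totals 0.77 (SE 0.18, edgeR adjusted p = 0.00865). mt-Nd4 also varied more between normoxic hearts than most genes, with an SD of log2 CPM (counts relative to the TMM-scaled library total) of 0.32 against a median of 0.13 over genes tested.

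mt-Nd2 held 2.59%, 2.50%, 2.23% and 2.78% of counts in normoxia and 2.32%, 3.26%, 3.00% and 3.76% in hypoxia. The last 3 hypoxic hearts were above every normoxic one, and hypoxia library 1 was inside the normoxia range. The log2 fold change was 0.47 under TMM (SE 0.18, edgeR adjusted p = 0.0668) and 0.29 under library totals (SE 0.15, edgeR adjusted p = 0.145), and neither passed. With 1 library left out the TMM value ran from 0.33 to 0.60, and it passed in 1 of the 8 fits, at 0.60 without hypoxia library 1 (edgeR adjusted p = 0.0158).

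mt-Nd5 encodes the subunit at the far end of the membrane arm and had the longest gene model, 1830 bp. It was the 1 gene of the 7 that was lower in hypoxia under each scaling. Its share was 1.49%, 1.75%, 1.54% and 1.52% in normoxia and 1.10%, 1.39%, 1.12% and 1.05% in hypoxia. All 4 hypoxic hearts lay below all 4 normoxic ones by share, with hypoxia library 2 the nearest. On the TMM scale only mt-Nd3, mt-Nd4 and mt-Nd4l had groups that did not overlap, as did 34.3% of the genes tested, since for mt-Nd5 hypoxia library 2, at 15490 CPM, lay inside the normoxia range of 13940 to 16170 CPM. The log2 fold change of mt-Nd5 was −0.25 (SE 0.13, edgeR adjusted p = 0.167) under TMM, which did not pass, and −0.43 (SE 0.11, edgeR adjusted p = 0.0144) under library totals, which did. With 1 library left out the TMM value ran from −0.38 to −0.21, and it passed in 1 of the 8 fits, at −0.38 without hypoxia library 2 (edgeR adjusted p = 0.0275).

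mt-Nd1 encodes the subunit at the junction of both arms, where ubiquinone enters. Its share was 2.37%, 2.87%, 2.59% and 2.71% in normoxia and 2.26%, 2.60%, 2.75% and 2.98% in hypoxia. By share the groups overlapped almost fully, and the means were 2.64% ± 0.208 and 2.65% ± 0.302 (SD, n = 4 each). On the TMM scale hypoxia libraries 2, 3 and 4 (29009, 27613 and 33344 CPM) lay above the normoxia range of 22136 to 26514 CPM. Hypoxia library 1, at 23059 CPM, lay inside that range. Under TMM mt-Nd1 differed by 0.19 on the log2 scale (SE 0.14, edgeR adjusted p = 0.324), and under library totals 0.01 (SE 0.11, edgeR adjusted p = 0.967). With 1 library left out the TMM value ran from 0.09, without hypoxia library 4, to 0.27, without hypoxia library 1, and did not pass in any of the 8 fits.

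**Figure D2:**
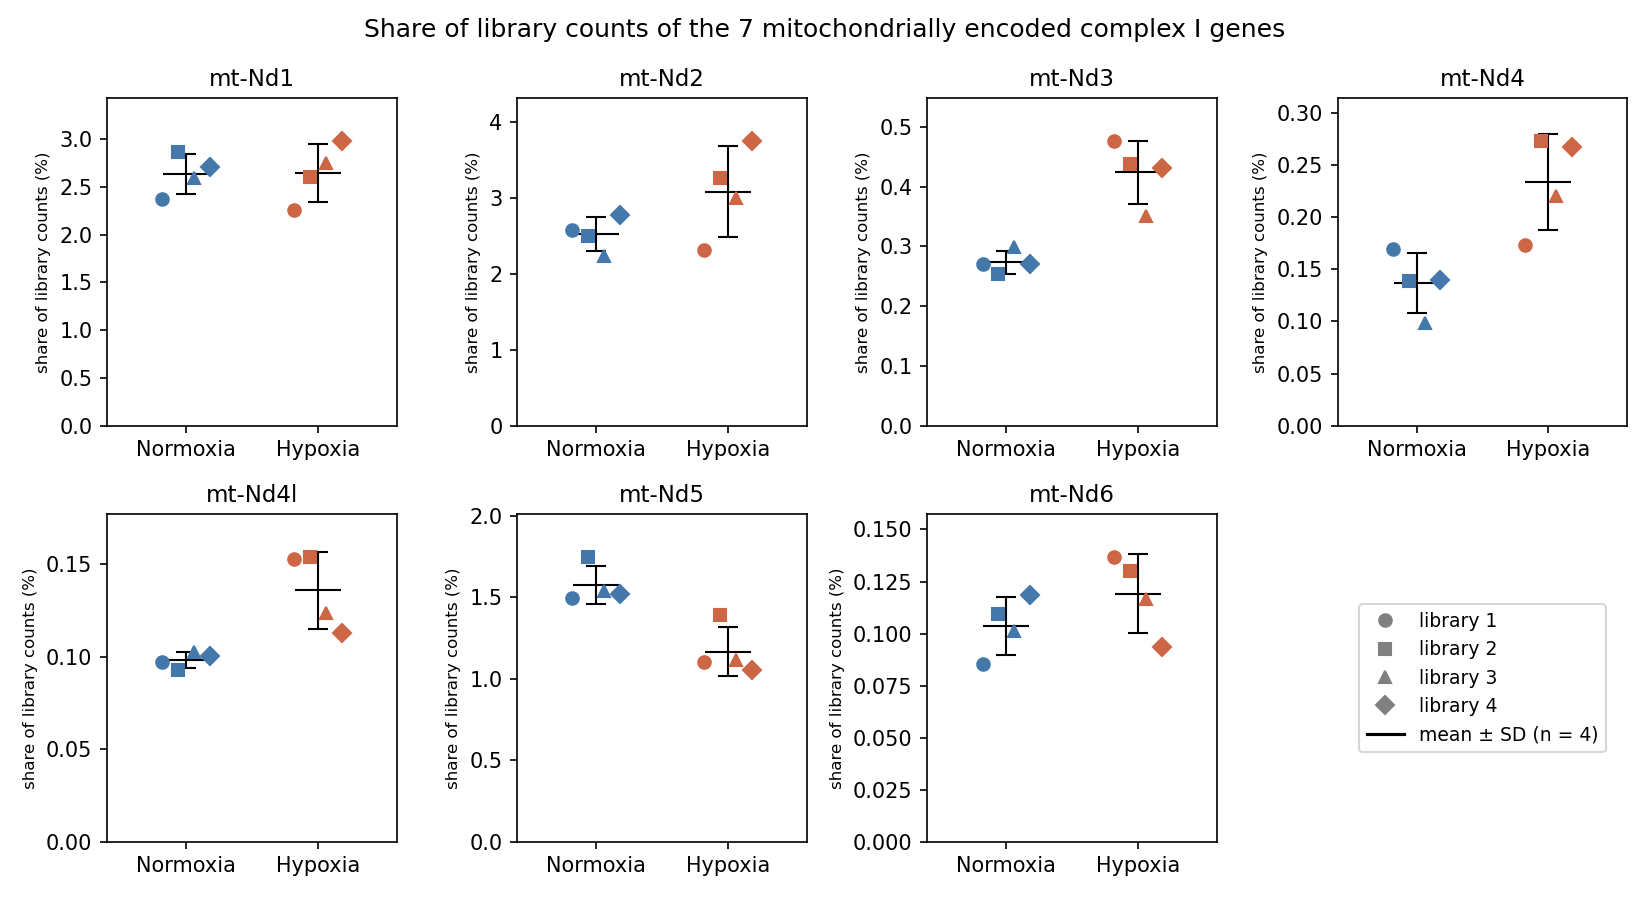
Share of library counts (percent, axes from 0) of each gene in the 4 normoxia and 4 hypoxia libraries, with the mean and SD of each group and marker shape showing the library number. The groups are apart for mt-Nd3, mt-Nd4, mt-Nd4l (higher in hypoxia) and mt-Nd5 (lower), and overlap for mt-Nd1, mt-Nd2 and mt-Nd6.

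Together the 7 genes held 7.08%, 7.71%, 6.97% and 7.64% of counts in normoxia libraries 1 to 4 and 6.63%, 8.25%, 7.68% and 8.70% in hypoxia libraries 1 to 4. By share of library totals, the hypoxia values lay on both sides of the normoxia range, library 1 below it and libraries 2 and 4 above. The means were 7.35% ± 0.382 and 7.82% ± 0.897 (SD, n = 4 each), a difference of 0.467 percentage points that is smaller than the spread of the hypoxic hearts. Leaving out hypoxia library 1 moved the difference to 0.863 points, and leaving out hypoxia library 4 moved it to 0.170. With the most abundant gene of the tables left out of the totals it was 0.718 points. The sum was not computed under TMM scaling. On that scale hypoxia library 1 lay inside the normoxia range for mt-Nd1 (23059 against 22136 to 26514 CPM). It also lay inside for mt-Nd2 (23684 against 20903 to 27040 CPM). It lay below the range for mt-Nd5 (11253 against 13940 to 16170 CPM) and above it for mt-Nd3, mt-Nd4, mt-Nd4l and mt-Nd6. The sum is mostly that of 3 genes: mt-Nd1, mt-Nd2 and mt-Nd5 gave 91.7% ± 0.484 of the counts of the 7 in normoxia and 88.2% ± 1.75 in hypoxia, with groups that did not overlap. mt-Nd3, mt-Nd4, mt-Nd4l and mt-Nd6 together held 0.612% ± 0.0160 of library counts in normoxia and 0.914% ± 0.0768 in hypoxia.

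Across the 14214 genes tested, which are not independent replicates, log2 fold change was lower in longer gene models (Spearman's rho = −0.303 under TMM), so the lengths of the 7 are given beside their changes. The lengths were 955 bp for mt-Nd1, 1039 bp for mt-Nd2, 348 bp for mt-Nd3, 1378 bp for mt-Nd4, 297 bp for mt-Nd4l, 1830 bp for mt-Nd5 and 519 bp for mt-Nd6. Of the 7, the longest, mt-Nd5, was lower in hypoxia, the second longest, mt-Nd4, rose most, and the shortest, mt-Nd4l and mt-Nd3, also rose. After that trend was removed from each library, mt-Nd3, mt-Nd4 and mt-Nd4l still rose, by log2 fold changes of 0.66, 0.80 and 0.55 (edgeR adjusted p = 0.00256, 0.0189 and 0.00449). In that fit 14.9% of all genes were called higher. mt-Nd5 was at −0.34 (edgeR adjusted p = 0.0800), mt-Nd2 at 0.26 (edgeR adjusted p = 0.321), mt-Nd6 at 0.14 (edgeR adjusted p = 0.458), and mt-Nd1 turned to −0.04 (edgeR adjusted p = 0.862). RNA integrity was not tested.

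**Figure D3:**
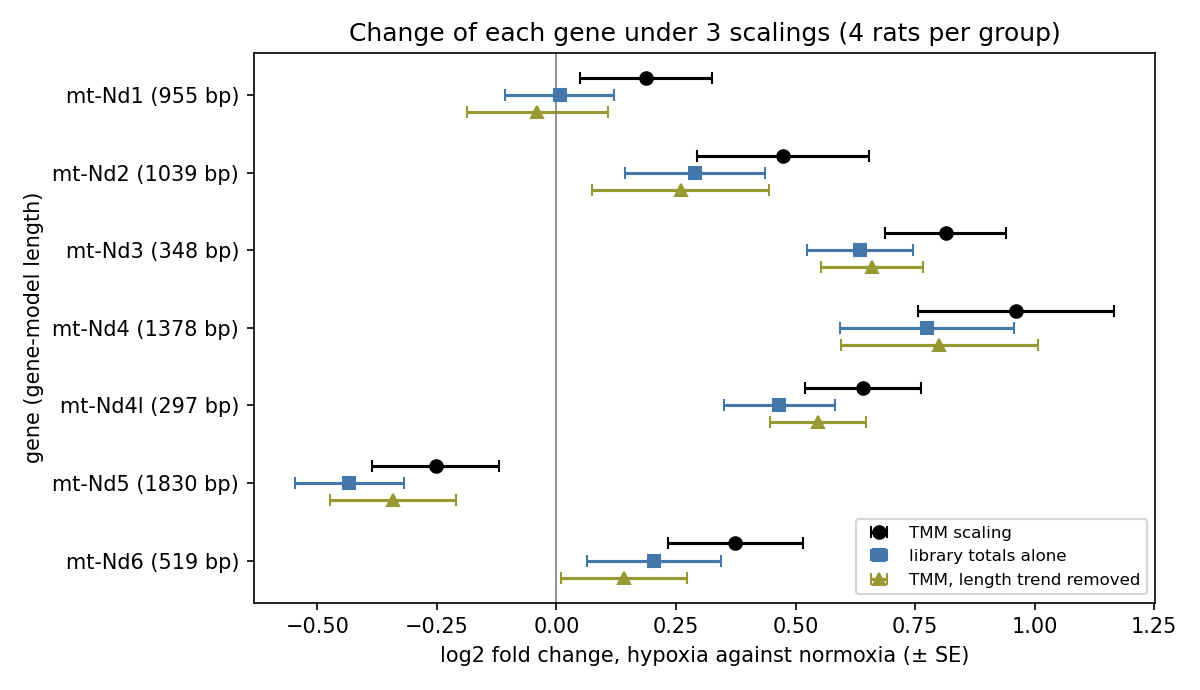
Log2 fold change of each gene, hypoxia against normoxia, with its SE under TMM scaling, library totals alone and TMM with the length trend removed, from 4 rats per group. mt-Nd3, mt-Nd4 and mt-Nd4l lie above 0 under all 3 scalings, mt-Nd5 lies below 0 under all 3, and mt-Nd1 lies at 0.19, 0.01 and −0.04.

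Ratios between genes within a library do not depend on how libraries are scaled. Of the 21 pairs among the 7 genes, 9 (42.9%) had FPKM ratios whose groups did not overlap, against 52.0% of the other pairs among the 100 most abundant genes. The share for the 7 genes is thus no higher than that background. The 9 pairs were the 6 that contain mt-Nd5 and the pairs mt-Nd1 with mt-Nd3, mt-Nd1 with mt-Nd4 and mt-Nd2 with mt-Nd4. Pairs that share a gene are not independent of one another. Set against each of the 99 other most abundant genes, mt-Nd5 had groups apart with 52.5% of them and mt-Nd3 with 65.7%, where the median gene had 51.5%. The remaining members had 30.3% (mt-Nd2) to 58.6% (mt-Nd4l).

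The largest of these shifts was that of mt-Nd4 over mt-Nd5, whose mean log2 ratio went from −3.14 ± 0.344 to −1.92 ± 0.281 (SD, n = 4 each), a 2.32-fold difference. For mt-Nd3 over mt-Nd5 it went from −0.13 ± 0.181 to 0.94 ± 0.245, a difference of 1.07 on the log2 scale. The smallest among the pairs with mt-Nd5 was that of mt-Nd1, by 1.36-fold. All 6 ratios to mt-Nd5 were higher in hypoxia.

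**Figure D4:**
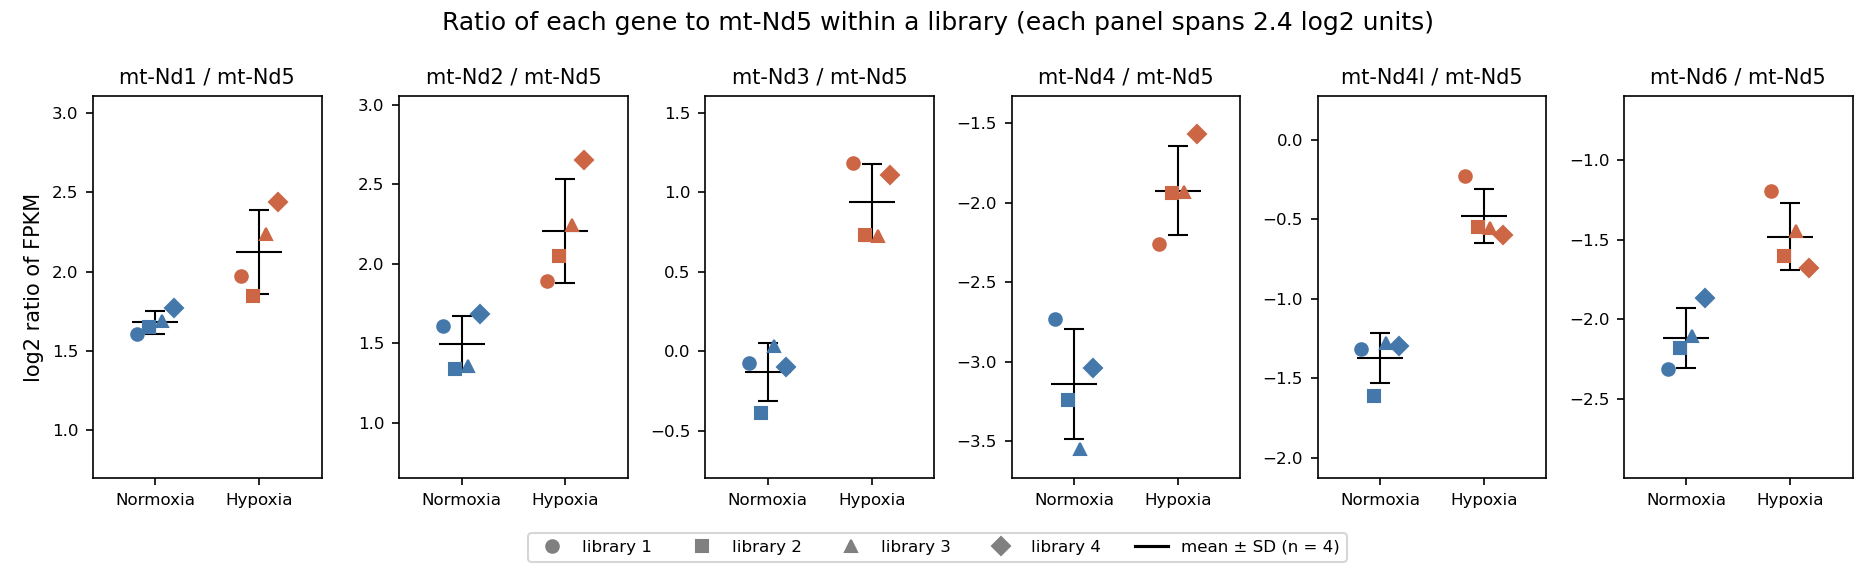
Log2 ratio of the FPKM of each gene to that of mt-Nd5 in the 4 normoxia and 4 hypoxia libraries, with mean and SD, each panel covering the same span. All 4 hypoxia values lie above all 4 normoxia values in each of the 6 panels, and the shift is largest for mt-Nd4 (from −3.14 to −1.92).

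The 2 ratios between neighbouring genes, mt-Nd6 to mt-Nd5 and mt-Nd4l to mt-Nd4, were compared by exact permutation tests. mt-Nd6 and mt-Nd5 are neighbours on opposite strands. The FPKM of mt-Nd6 was 0.201, 0.221, 0.232 and 0.274 times that of mt-Nd5 in normoxia libraries 1 to 4 and 0.437, 0.329, 0.367 and 0.313 times in hypoxia libraries 1 to 4. The groups did not overlap and the mean log2 ratio was 0.64 higher in hypoxia, with a two-sided exact permutation p of 0.0286 (n = 4 each), the smallest that 70 assignments allow. Adjusted over the 2 ratios the exact permutation p was 0.0571, which did not pass. With a smallest p of 0.0286, 1 ratio cannot pass this adjustment unless the other ratio also has a p under 0.05. The adjusted value therefore cannot decide whether this ratio differed. The sources used here do not give the strand setting of the counting, and without it reads of mt-Nd6 and of RNA from the opposite strand cannot be told apart. The part of such reads in this ratio was not tested.

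mt-Nd4l and mt-Nd4 stay together on 1 RNA with overlapping reading frames. Even so, mt-Nd4l stood above mt-Nd4 per gene length in every library, by 2.67, 3.10, 4.82 and 3.35 times in normoxia libraries 1 to 4 and 4.08, 2.61, 2.60 and 1.96 times in hypoxia libraries 1 to 4. The groups overlapped, and the mean log2 ratio differed by −0.32 (n = 4 each, two-sided exact permutation p = 0.314, adjusted 0.314). That difference depended on single libraries: it was −0.52 when hypoxia library 1 was left out, −0.17 when hypoxia library 4 was, and −0.15 when normoxia library 3 was. The sources used here do not say how reads were counted where the genes overlap or where nuclear copies of mitochondrial sequence match. The level of mt-Nd4 relative to mt-Nd4l is therefore uncertain, and the part of such reads was not tested.

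Hypoxic hearts differed from one another in the mix of these RNAs. In hypoxia library 1 mt-Nd1 and mt-Nd2 had their lowest shares of counts of all 8 libraries apart from mt-Nd2 in normoxia library 3, while mt-Nd3 and mt-Nd6 had their highest. By share, hypoxia library 4 had the highest mt-Nd1 and mt-Nd2 of all 8 libraries and the lowest mt-Nd4l, mt-Nd5 and mt-Nd6 of the hypoxic hearts, while mt-Nd3 was lowest among them in library 3. Some of these ranks depended on the scaling. Under TMM the lowest hypoxic mt-Nd4l was in library 3 (1244 CPM, against 1264 in library 4). The lowest mt-Nd5 was in library 1 (11253 CPM, against 11790 in library 4). mt-Nd3 and mt-Nd6 were highest in hypoxia library 2, and mt-Nd1 was lowest in normoxia library 1. As a part of the summed FPKM of the 7 genes, mt-Nd3 took 18.3%, 14.2%, 12.3% and 13.3% in hypoxia libraries 1 to 4, against 9.44% to 12.0% in normoxia. mt-Nd5 took 8.06%, 8.58%, 7.47% and 6.19% in hypoxia against 10.7% to 12.4% in normoxia. These were the 2 genes of the 7 whose part of the sum did not overlap between the groups. This measure was not computed for other genes. By share of counts, groups were apart for 36.9% of all genes tested. The SD of log2 CPM was larger in hypoxia than in normoxia for 6 of the 7, all but mt-Nd6. The median SD over all genes tested was larger too, at 0.13 in normoxia and 0.23 in hypoxia. For mt-Nd2 the SD was 0.15 and 0.36, and for mt-Nd4 0.32 and 0.37. In hypoxia 72.0% and 74.1% of genes tested had a smaller SD than these 2. For the remaining members that figure was 46.7% to 49.5%.

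The genes most like the mean of the 7 across the libraries were sought by Pearson's r of log2 CPM with the mean centred profile of the 7, among the 12652 other genes whose mean reached 1 CPM. That profile was −0.26, −0.22, −0.30 and −0.12 in normoxia libraries 1 to 4 and 0.09, 0.43, 0.07 and 0.30 in hypoxia libraries 1 to 4. As a mean it does not describe each gene: mt-Nd5 had a TMM log2 fold change of −0.25, which did not pass. ENSRNOG00000014456 was closest, with r = 0.996 over 8 libraries, and stood at 11.8 ± 0.861 CPM in normoxia and 20.2 ± 4.36 CPM in hypoxia (SD, n = 4 each). ENSRNOG00000048719 came next with r = 0.986. The most opposed were ENSRNOG00000009052 with r = −0.987, at 2.33 ± 0.439 and 0.833 ± 0.467 CPM, and ENSRNOG00000001547 with r = −0.984. These values describe 8 libraries that fall into 2 groups and share their scaling, and they are given without a test.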

How the data were processed

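Per the labels' protocols, Trizol and the NEBNext Ultra RNA kit were used to extract total heart RNA of 4 normoxic and 4 hypoxic rats and to make the libraries. The authors deposited read counts per gene, as whole numbers with no normalization. They also deposited FPKM values, which are those counts divided by gene-model length and library total: each gene's count and FPKM returned a single whole length (tolerance 0.001, relative) in 100% of values above 0. The submitters' processing notes name the build rn6, bcl2fastq, HISAT2 2.1.0, Bowtie2 2.2.3 and HTSeq 0.6.0. Their roles, the annotation used, the strand option and how ambiguous reads were handled are not given in the sources used.

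Counts were tested over all genes with edgeR 4.0.16 in R 4.3.3: filterByExpr with a minimum count of 10, TMM scaling and the quasi-likelihood test with a group term. Benjamini-Hochberg adjustment ran over the 14214 genes tested, and "rose", "fell" and "called" mean an adjusted p under 0.05. SEs were derived from the test statistic. The prior count of log2 CPM was 2. The fitting script was tested on simulated data. Each ratio was tested by a two-sided exact permutation test (scipy 1.17.1), adjusted over 2 ratios. Shares and sums over the 7 genes were given no test.

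Alternatives were RLE and upper-quartile scaling, library totals alone, scaling without the 7 genes, shares without the most abundant gene or of summed FPKM, DESeq2 1.42.0, limma-voom and limma on log2(FPKM + 1) or log2(FPKM + 0.1) (limma 3.58.1), other filters and robust dispersions, a block on the replicate number, a lowess length correction (span 0.3), and libraries left out. The 7 genes, the lists and the tests were chosen with earlier results of these data known. The rule for named genes took the 7 genes, members of fixed lists, and the 2 genes of highest and 2 of lowest r with their mean profile. The 15 fixed gene lists, among them nuclear complex I subunits, mitochondrial RNA processing genes and cell type markers, could not be matched to IDs and were not analysed here. No sequences are shown, since the tables used here matched 0 of the 7 genes.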

Additional observations from a re-analysis of the deposited data

How the results depend on the processing

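Over 24 alternatives the log2 fold change of mt-Nd4 ran from 0.77 to 1.09 and passed in 24. mt-Nd3 (0.63 to 0.92) and mt-Nd4l (0.43 to 0.81) passed in 23 each, the exception being limma on log2(FPKM + 1) with no filter (adjusted p = 0.159 and 0.125), which called 1 gene higher (5.20% of all genes). DESeq2 and a filter at a mean of 5 CPM each called 5 higher, adding mt-Nd2 and mt-Nd6, where 19.5% and 21.7% of all genes were called higher. mt-Nd5 was negative in 24 (−0.44 to −0.16) and passed in 5: library totals alone, limma on filtered log2(FPKM + 1) or log2(FPKM + 0.1), without hypoxia library 2, and without hypoxia libraries 1 and 2, each with 1 gene called lower. In these 5 fits 27.2%, 31.4%, 31.2%, 16.1% and 20.1% of all genes were called lower, in that order. mt-Nd1 passed in 0 and turned negative, to −0.0401, with the length trend removed. The cause of these differences was not tested, except that the FPKM scale keeps library totals. With 1 library left out, 3 to 4 genes were called higher and 0 to 1 lower.

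Nothing in the sources used here says that animals with the same replicate number were paired. Correlations of their deviations from the group means were −0.0847 to 0.0187, which cannot settle whether they were. With the replicate block 3 genes were called higher and 0 lower, as without it, against 14.3% and 12.7% of all genes. The block left the ratios at 0.64 for mt-Nd6 to mt-Nd5 and −0.32 for mt-Nd4l to mt-Nd4, and its exact sign-flip test cannot pass with 4 pairs. The same holds for the ratios with libraries left out, which were read as values: 0.54 to 0.72 for mt-Nd6 to mt-Nd5 and −0.52 to −0.15 for mt-Nd4l to mt-Nd4 with 1 library left out. With the length trend removed, chosen after seeing the data, the ratios differed by 0.48 and −0.25. Scaling without all mitochondrially encoded genes was not run, for want of gene names. Depth does not limit these genes, whose lowest count was 26198.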
